A study of Caenorhabditis elegans with 18 samples.

Results

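The 6 furrow collagens of the Caenorhabditis elegans cuticle, dpy-2, dpy-3, dpy-7, dpy-8, dpy-9 and dpy-10, were measured in RNA from whole worms at the L4 larval stage. They were chosen by sequence name (T14B4.6, EGAP7.1, F46C8.6, C31H2.2, T21D12.2 and T14B4.7), without regard to their values, and are 6 of the 20505 gene models counted. Both gene tables used here give T14B4.6 as dpy-2 and T14B4.7 as dpy-10, and the names are used in that sense. The worms were the wild-type strain N2, the mutant lin-65(n3441) and the mutant met-2(ok2307), each grown from hatch at 20 °C. Each strain was fed bacteria carrying either the empty vector (EV), which silences no gene, or cco-1 RNAi bacteria mixed with empty vector. The 6 groups hold 3 libraries each, 18 in all. Each mutant is represented by a single allele. The labels do not say whether libraries of a group came from separate cultures, so p-values measure the spread between these samples, which may be technical.

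The cuticle of the worm is ringed by shallow grooves, the annular furrows, and these 6 collagens are each needed for the furrows to form. Loss of any of them gives a short, stout (dumpy) animal, and in such animals the epidermis turns on genes for osmolyte production, detoxification and antimicrobial peptides. The epidermis makes a new cuticle before every molt and transcribes collagen genes in waves. The furrow collagens belong to an early wave, ahead of other body-shape collagens such as dpy-13. MET-2 is a histone H3 lysine 9 methyltransferase and LIN-65 its partner in the nucleus. Both are known for a part in the mitochondrial stress response, which cco-1 RNAi sets off by lowering a nuclear-encoded subunit of cytochrome c oxidase (the gene is now named cox-5B). The groups therefore compare the response to that stress with and without each factor.

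The members lie on 3 chromosomes of the WBcel235 assembly (Ensembl 115 annotation). No source used here gives the build behind the counts. dpy-2 (WBGene00001064) is at II:6714292-6715971 on the plus strand, with 5 exons and 380 codons. dpy-10 (WBGene00001072), widely used as a marker in genome editing, is at II:6710149-6712227 on the minus strand, with 5 exons and 356 codons. These neighbours are 2064 bases apart and are read in opposite directions, with 3 annotated genes between them. The X chromosome carries dpy-3 (WBGene00001065) at X:2144605-2145647, dpy-7 (WBGene00001069) at X:7536467-7537792 and dpy-8 (WBGene00001070) at X:5148804-5150476, all on the minus strand. Their coding regions have 302, 318 and 452 codons. dpy-9 (WBGene00001071) is at IV:257403-259204 on the minus strand, with 4 exons and 315 codons. The exons of dpy-10 share 780 of their 1593 bases (48.96%) with T14B4.19 on the same strand, which was not analysed here, so reads of these 2 genes cannot be told apart over that stretch. dpy-8 shares 109 of 1513 exonic bases (7.2%) with C31H2.14 on the opposite strand, whose group means ran from 2.27 to 12.4 CPM (counts scaled to the size of each library with edgeR's TMM factors).

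Libraries held 5141303 to 19261705 counts. All 6 members passed the filter on low counts, as did 15110 genes in all, and their raw counts ran from 234 (dpy-10) to 12524 (dpy-8). At the lowest count of each member, counting error alone was 2.32% to 6.54%. The CV between N2 libraries was far larger, at 46.3% to 59.3%. In met-2 on cco-1 RNAi the CV ran from 3.35% for dpy-7 to 43.4% for dpy-9, with 5.79% for dpy-2 and 6.54% for dpy-10. The RNAi target cox-5B fell in each strain, by 1.28 in N2, 1.08 in lin-65 and 0.98 in met-2 on the log2 scale (adjusted p = 0.00827, 0.0321 and 0.0407). The met-2 transcript was lower in met-2 (18.9 ± 4.04 CPM) than in N2 (40.5 ± 3.40 CPM) without RNAi (adjusted p = 0.0195). The lin-65 transcript averaged 6.88 CPM in lin-65 and 13.4 CPM in N2 on empty vector (adjusted p = 0.329). A pair of libraries, lin-65 EV replicate 1 and met-2 cco-1 replicate 1, stood apart in earlier results of these data, and the strain field of the first reads N2 while its title and source read lin-65. Without this pair every furrow collagen kept its side of the threshold in every comparison. All 7 epidermal marker genes (lin-26, elt-1, elt-3, nhr-25, ajm-1, che-14 and vha-5) passed the filter. In whole worms, fewer epidermal cells and less RNA per cell cannot be told apart.

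Levels are given in CPM for each library, or as mean ± SD of n = 3 libraries. In N2 on empty vector, dpy-2 stood at 40.6, 23.2 and 78.1 CPM in replicates 1 to 3. On cco-1 RNAi in N2 it stood at 103, 37.6 and 127 CPM. The same replicate number was lowest on both diets, and the groups overlapped. In lin-65, dpy-2 read 28.4, 35.1 and 41.2 CPM on empty vector and 64.7, 62.9 and 98.1 CPM on cco-1 RNAi, so the RNAi libraries all lay above the control libraries. In met-2 the values were 111, 140 and 157 CPM on empty vector and 102, 111 and 99.3 CPM on cco-1 RNAi. All 6 met-2 libraries were therefore above all 3 N2 libraries on empty vector.

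dpy-10 followed the same order at lower levels. It read 36.6, 17.5 and 53.2 CPM in N2 on empty vector and 67.9, 31.4 and 93.8 CPM in N2 on cco-1 RNAi. In lin-65 its values were 22.8, 25.4 and 28.9 CPM on empty vector and 58.3, 48.3 and 71.1 CPM on cco-1 RNAi. met-2 gave 78.9, 81.5 and 92.7 CPM on empty vector and 82.4, 76.8 and 72.3 CPM on cco-1 RNAi. The met-2 values lay close together, while those of N2 spanned about the same 3-fold range as for dpy-2.

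dpy-3 rose from 55.0 ± 27.5 CPM in N2 to 171 ± 59.9 CPM in met-2 on empty vector, where its 3 libraries read 126, 147 and 239 CPM against 46.4, 32.8 and 85.7 CPM. The lin-65 libraries on empty vector all lay at the low end, at 34.8, 40.7 and 48.8 CPM. dpy-7, whose promoter is a standard driver of expression in the epidermis, read 56.2, 27.7 and 90.9 CPM in N2 and 144, 160 and 218 CPM in met-2 on empty vector. No met-2 library overlapped the N2 libraries of the same diet for dpy-7, also on cco-1 RNAi (182, 181 and 171 CPM in met-2 against 113, 44.3 and 154 CPM in N2).

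dpy-8 and dpy-9 behaved less distinctly. dpy-8 stood at 370, 149 and 493 CPM in N2 and at 476, 531 and 478 CPM in met-2 on empty vector, so that the N2 library with most dpy-8 was above 2 of the 3 met-2 libraries. dpy-9 stood at 79.6, 40.9 and 134 CPM in N2 and at 126, 162 and 182 CPM in met-2 on empty vector, which overlapped by a single library. The highest dpy-9 value of all 18 libraries, 255 CPM, was in met-2 cco-1 replicate 1, and the other met-2 libraries on that diet read 143 and 115 CPM.

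**Figure D1:**
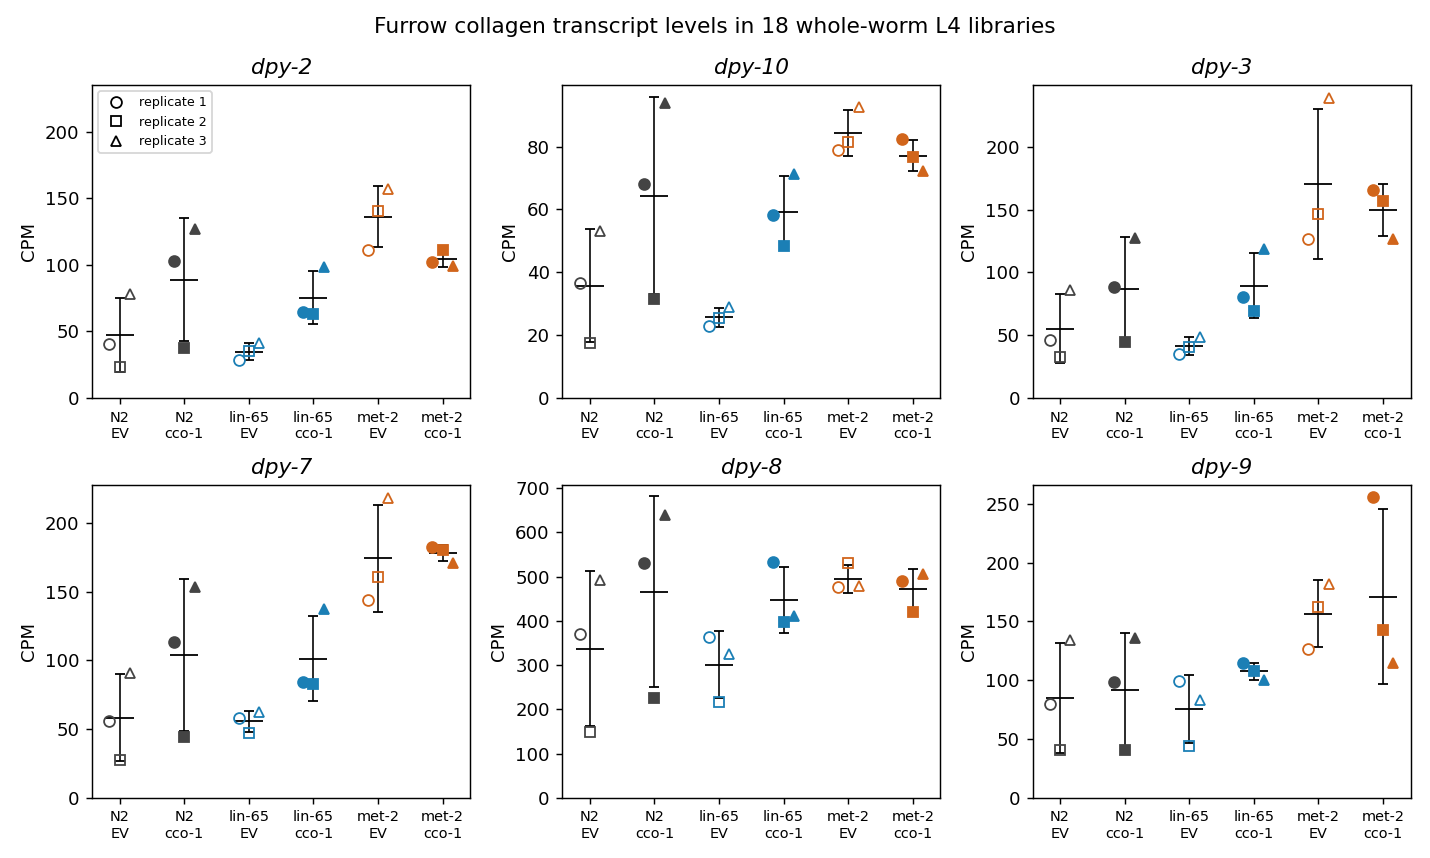
Transcript level (CPM) of each furrow collagen in 18 libraries, by strain and diet (EV, empty vector; cco-1, cco-1 RNAi). Open symbols are EV and filled symbols cco-1 RNAi, the symbol shape gives the replicate number, and bars are mean ± SD of n = 3. For dpy-2, dpy-10, dpy-3 and dpy-7 all met-2 EV libraries lie above all N2 EV libraries, and N2 replicate 2 is the lowest N2 library on each diet.

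Per length of exon (RPKM, the CPM divided by exonic length in kilobases), the order of the members was nearly fixed. dpy-8 was highest, dpy-2 second from the bottom and dpy-10 lowest in all 18 libraries. In N2 on empty vector these levels were 223 ± 115 RPKM for dpy-8, 35.8 ± 21.2 for dpy-2 and 22.5 ± 11.2 for dpy-10. dpy-9, dpy-3 and dpy-7, the middle of the order, did not keep their places. Their N2 levels on empty vector were 80.9 ± 44.6, 57.2 ± 28.6 and 50.8 ± 27.6 RPKM, each within the spread of the next. dpy-3 was above dpy-7 in 11 of 18 libraries and above dpy-9 in 8, and dpy-7 was above dpy-9 in 7. Over exonic length the dpy-10 level includes any reads of T14B4.19.

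The members rose and fell together from library to library. Over the 18 libraries, Pearson's r of log2 CPM ran from 0.75 to 0.98 for the 15 pairs, with a median of 0.86. These are descriptions of libraries that share their group, depth and scaling, and no p is given. The 6 pairs among dpy-2, dpy-3, dpy-7 and dpy-10 had r of 0.95 to 0.98, the highest being dpy-2 with its chromosomal neighbour dpy-10. The 9 pairs with dpy-8 or dpy-9 had r of 0.75 to 0.88. The pattern was not only one of group means: after the group mean was subtracted, r still ran from 0.69 to 0.97. Much of this lay in N2. The summed level of the 6 genes was 291 CPM in N2 EV replicate 2 and 935 CPM in N2 EV replicate 3, a range of 3.21-fold within 1 group. On cco-1 RNAi the N2 range was 3.02-fold, and replicate 2 was again lowest. In the lin-65 and met-2 groups the range was 1.17-fold to 1.48-fold.

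**Figure D2:**
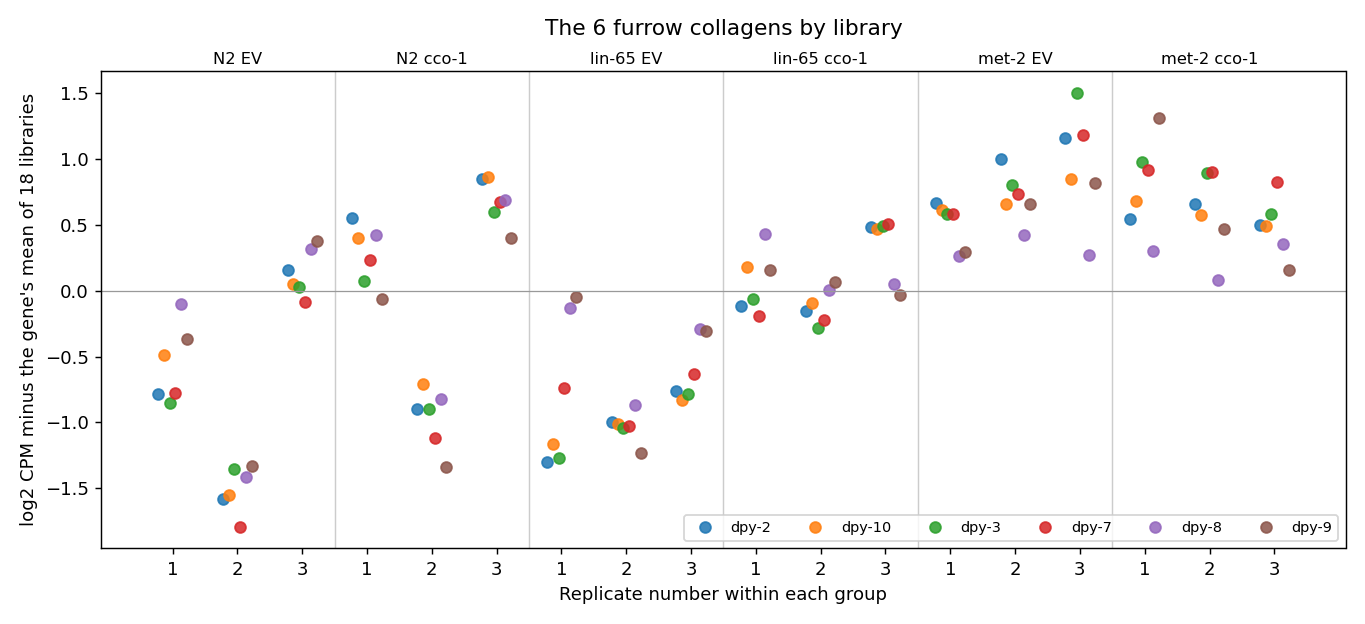
Log2 CPM of each furrow collagen minus that gene's mean over the 18 libraries, by group and replicate number, 1 point per gene and library. In N2 the libraries differ more than the points within 1 library, and replicate 2 lies lowest on each diet. Some mutant libraries spread widely. Points run from -1.30 (dpy-2) to -0.05 (dpy-9) in lin-65 EV replicate 1 and from 0.27 (dpy-8) to 1.50 (dpy-3) in met-2 EV replicate 3. dpy-8 lies below the others in the met-2 EV libraries.

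Among the strain comparisons in the 18-library fit without a block, furrow collagens were called only between met-2 and N2 on empty vector. With edgeR's quasi-likelihood test and Benjamini-Hochberg adjustment over 15110 genes (threshold 0.05), 4 of the 6 rose in met-2 against N2. The background was high: 15.3% of all tested genes were called higher in this comparison and 30.5% in either direction. dpy-3 rose by a log2 fold change of 1.63 ± 0.38 (SE, adjusted p = 0.0055) and dpy-7 by 1.58 ± 0.41 (adjusted p = 0.00914). dpy-2 rose by 1.52 ± 0.41 (adjusted p = 0.0111) and dpy-10 by 1.24 ± 0.36 (adjusted p = 0.0165). On the linear scale these are 2.36-fold to 3.10-fold. The other two were also above 0, as were 51.7% of all genes, but did not pass, with 0.55 ± 0.37 for dpy-8 (adjusted p = 0.264, 95% interval -0.23 to 1.34) and 0.88 ± 0.44 for dpy-9 (adjusted p = 0.132, 95% interval -0.04 to 1.81). The median of the 6 was 1.38, against 0.04 over all tested genes. The 4 genes that passed are those whose met-2 and N2 libraries did not overlap, as held for 29.7% of all genes in the higher direction.

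The size of this difference rested in part on N2 EV replicate 2, which had the least of all 6 transcripts among the N2 libraries on empty vector. Without it, dpy-3 and dpy-7 still passed, while dpy-2 at 1.19 (adjusted p = 0.0575) and dpy-10 at 0.91 (adjusted p = 0.0768) did not, and 7.51% of genes were called higher. Without met-2 EV replicate 3, dpy-10 did not pass, at a fold change of nearly the same size (1.17, adjusted p = 0.0551). Without N2 EV replicate 3, dpy-9 passed as well, at 1.39 (adjusted p = 0.0452). These libraries also differed in genes of the molt, for which the values are given with the gene lists below. Over all genes, 2411 to 6095 were called in this comparison when 1 library was left out, against 4616 with every library. Whether the changed calls of the members followed that count was not tested.

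On cco-1 RNAi, 0 of the 6 were called between met-2 and N2 by edgeR, where 20.8% of genes were called in either direction and 11.2% higher. No member reached an unadjusted p under 0.05 either, and DESeq2 called 0. All 6 fold changes were above 0, as were 51.8% of all genes, from 0.02 ± 0.37 for dpy-8 to 0.90 ± 0.44 for dpy-9 (adjusted p = 0.158). dpy-3 and dpy-7 had 0.78 ± 0.37 and 0.78 ± 0.40 (adjusted p = 0.149 and 0.179). Without the pair of libraries that stood apart, dpy-9 had 0.44, under 0.65 for dpy-3 and 0.70 for dpy-7, and dpy-8 had -0.06. dpy-2 and dpy-10, which rose on empty vector, had 0.22 ± 0.40 and 0.26 ± 0.35 here. dpy-7 alone had groups that did not overlap, which was so for 19.4% of genes in the higher direction.

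**Figure D3:**
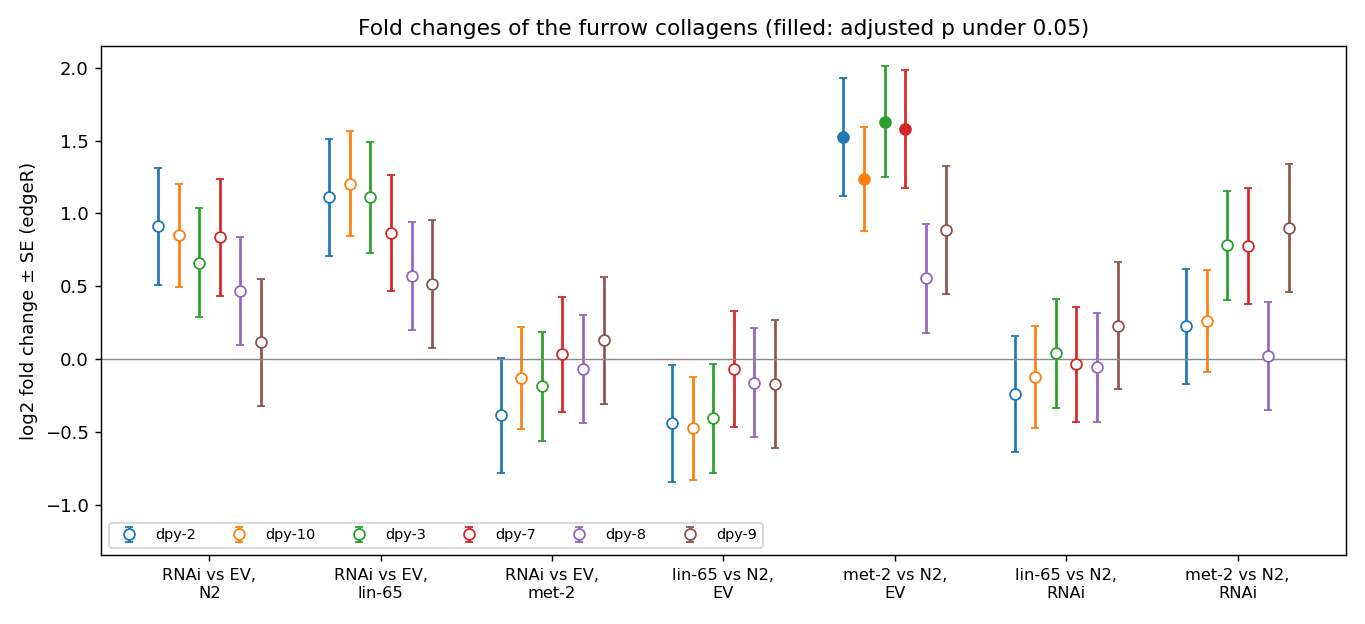
Log2 fold change ± SE (edgeR) of each furrow collagen in 7 comparisons, with filled points for adjusted p under 0.05. The 4 filled points, at 1.24 to 1.63, are in met-2 against N2 on empty vector. Within N2 and lin-65 all 6 points for cco-1 RNAi are above 0 (49.6% and 48.6% of all genes were), and within met-2 they lie around 0.

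In lin-65 no furrow collagen was called against N2. On empty vector 1.42% of genes were called, and the 6 fold changes were all below 0, where 55.8% of all genes were above 0. They ran from -0.07 ± 0.40 for dpy-7 to -0.48 ± 0.36 for dpy-10, with overlapping groups. The smallest adjusted p was 0.742, no member had an unadjusted p under 0.05, and DESeq2 called 0. On cco-1 RNAi 1.11% of genes were called between these strains, and the members lay between -0.24 ± 0.40 (dpy-2) and 0.23 ± 0.44 (dpy-9). Neither edgeR nor DESeq2 called a member there, and none had an unadjusted p under 0.05. The intervals were wide: for dpy-2 on empty vector the 95% interval ran from -1.28 to 0.40, so a fall of over 2-fold in lin-65 lay inside it.

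Mitochondrial stress in N2 gave no call in the 18-library fit, and gave 5 in a fit paired by replicate number. In the first, 0 of 6 members passed, against 0.841% of genes in either direction and 0.543% higher. Of the members, 2 had an unadjusted p under 0.05, as did 2712 of all 15110 genes, and DESeq2 called 0 members. The fold changes were 0.91 ± 0.40 for dpy-2 (adjusted p = 0.252), 0.85 ± 0.35 for dpy-10 (0.237), 0.83 ± 0.40 for dpy-7 (0.281), 0.66 ± 0.38 for dpy-3 (0.348), 0.47 ± 0.37 for dpy-8 (0.499) and 0.11 ± 0.44 for dpy-9 (0.902). The groups overlapped for every member, while 20.5% of all genes were higher without overlap.

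N2 libraries with the same number deviated together over all genes, by little for replicate 1 (r of 0.126 against up to 0.12 between other numbers). The same rule also paired groups that share neither strain nor diet, such as N2 EV with met-2 cco-1 (0.244, 0.214 and 0.267). The rule therefore cannot show that N2 libraries of a number were grown together, and the pairing below is an assumption. Within the N2 pairs, 17 of the 18 ratios of cco-1 RNAi to empty vector were above 1. dpy-10 was higher in each pair, by 1.76-fold to 1.85-fold, and dpy-2 by 1.62-fold to 2.53-fold. The ratio below 1 was one of dpy-9, whose pairs ran from 0.994-fold to 1.24-fold. Taken by number, 18 of 18 ratios were above 1 in lin-65, where the numbers did not pair the libraries, and 8 of 18 in met-2. Each count covers 6 correlated genes in 3 pairs, so the N2 count does not by itself show a paired response. With the replicate number as a block and the N2 libraries alone, 5 of the 6 passed in the higher direction, as did 17.6% of the 14040 genes tested that way. The adjusted p in that fit was 0.00214 for dpy-2, 0.00126 for dpy-10, 0.00189 for dpy-7, 0.00739 for dpy-3 and 0.0200 for dpy-8, and 0.542 for dpy-9. This fit was added after the values had been seen. With the block in the fit of all 18 libraries, which share 1 estimate of the spread over strains, 0 members passed.

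In lin-65 the furrow collagens were higher on cco-1 RNAi in every library, yet none passed in the 18-library fit without a block. All 6 had groups that did not overlap in the higher direction, against 7.76% of all genes. edgeR called 0 of 6 members and 0.715% of genes (0.271% higher), DESeq2 called 0 members, and 4 members had an unadjusted p under 0.05, as did 1872 of all 15110 genes. The fold changes were largest for dpy-10 at 1.21 ± 0.36 (adjusted p = 0.176), dpy-2 at 1.11 ± 0.40 (adjusted p = 0.268) and dpy-3 at 1.11 ± 0.38 (adjusted p = 0.242). dpy-7, dpy-8 and dpy-9 had 0.86 ± 0.40, 0.57 ± 0.37 and 0.51 ± 0.44. The median of the members was 0.99, against -0.02 over all genes. Without lin-65 EV replicate 1, the library whose strain field reads N2, and met-2 cco-1 replicate 1, these values ran from 0.72 (dpy-8) to 1.12 (dpy-10).

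In met-2 the members did not move in a common direction on cco-1 RNAi. edgeR called 0 of 6 and 1.11% of genes, DESeq2 called 0, and none had an unadjusted p under 0.05. dpy-2 was lower without overlap, at -0.39 ± 0.40 (adjusted p = 0.803), as were 5.98% of all genes. The others lay between -0.19 ± 0.37 for dpy-3 and 0.13 ± 0.44 for dpy-9. The dpy-9 value was -0.30 without the pair of libraries named above, to which met-2 cco-1 replicate 1 with its 255 CPM belongs.

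The differences between these responses were tested directly, and none was called for a member. For lin-65 minus N2, 0% of genes were called and the members lay between 0.03 ± 0.56 (dpy-7) and 0.45 ± 0.53 (dpy-3), all with adjusted p of 0.999. No member had an unadjusted p under 0.05, and DESeq2 called 0. For met-2 minus N2, 0% of genes were called by edgeR, and DESeq2 called 0 of the members. dpy-2 had the largest difference, at -1.30 ± 0.56 (unadjusted p = 0.0337, adjusted p = 0.269, 95% interval -2.48 to -0.11). It was the only member with an unadjusted p under 0.05. dpy-10 followed at -0.98 ± 0.50 (adjusted p = 0.310), and dpy-9 had 0.01 ± 0.62. The 95% intervals of both differences took in values past 2-fold for every member. The 3 N2 libraries on empty vector are controls both for these differences and for met-2 against N2, so the results are not independent.

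Averaged over the 3 strains, cco-1 RNAi gave 0 calls among the members at a background of 4.08% (1.81% higher), with 4 members and 2550 of all 15110 genes at an unadjusted p under 0.05. dpy-10 came nearest, at 0.64 ± 0.20 (adjusted p = 0.0964). DESeq2 called it (adjusted p = 0.0460), where 3.34% of genes were called higher. It also passed without N2 EV replicate 3 (adjusted p = 0.0376) and without N2 cco-1 replicate 2 (adjusted p = 0.0244), where 525 and 530 genes were called in all against 617 with every library. Only these 2 of the 18 edgeR fits with 1 library left out called dpy-10, and its adjusted p reached 0.244 among them. A replicate block called dpy-10 too (2.09% of genes higher), and a block within each strain called it with dpy-2 and dpy-7 (1.36% higher). The replicate numbers did not pair the lin-65 or the met-2 libraries across the diets, so these blocks assume a pairing not seen there. dpy-2, dpy-3 and dpy-7 had 0.54 ± 0.23, 0.53 ± 0.22 and 0.58 ± 0.23 (adjusted p = 0.236, 0.223 and 0.206), and dpy-8 and dpy-9 had 0.32 ± 0.21 and 0.25 ± 0.25.

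The share of dpy-8 in the furrow set was smaller in met-2 than in N2. It supplied 54.2% ± 4.04 of the summed CPM in N2 on empty vector, 56.0% ± 3.49 in lin-65 and 41.1% ± 5.31 in met-2 (SD, n = 3). On cco-1 RNAi the shares were 52.1% ± 1.69 in N2 and 50.9% ± 6.61 in lin-65, and 38.3%, 38.6% and 46.4% in the 3 met-2 libraries. On the log2 scale dpy-8 stood above the mean of dpy-2, dpy-3, dpy-7 and dpy-10 by 2.78 ± 0.24 in N2 and by 1.89 ± 0.31 in met-2, both on empty vector. The summed level was 618 ± 322 CPM in N2, 534 ± 109 CPM in lin-65 and 1217 ± 152 CPM in met-2 on empty vector. On cco-1 RNAi it was 901 ± 436, 880 ± 97.3 and 1152 ± 109 CPM. lin-65 cco-1 replicate 3, at 43.9%, lay within the range of the met-2 libraries. N2 cco-1 replicate 3 reached 1278 CPM with a dpy-8 share of 50.1%, and met-2 cco-1 replicate 1 reached 1277 CPM with 38.3%. This measure was chosen after its values were seen, so it is a description with no test.

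**Figure D4:**
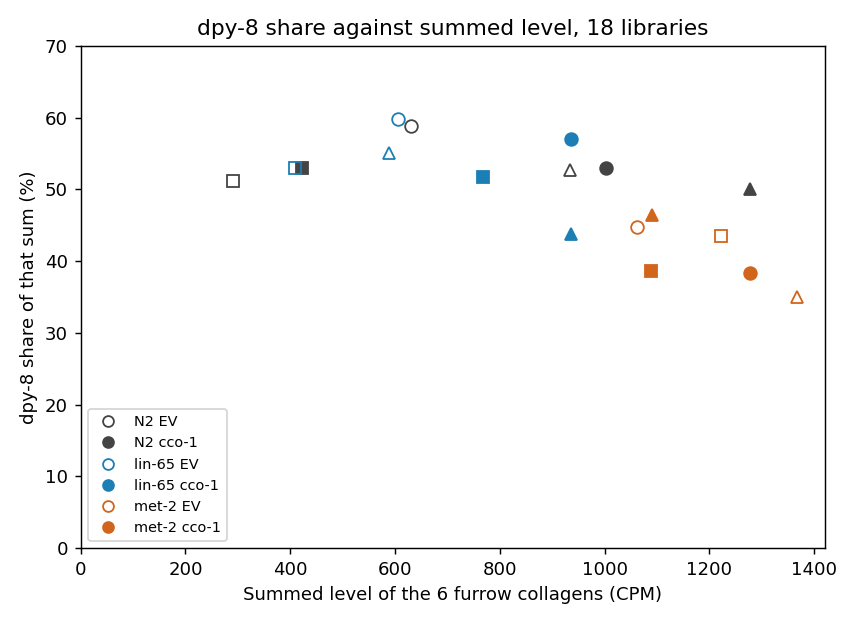
Share of dpy-8 in the summed CPM of the 6 furrow collagens (percent) against that sum (CPM), 1 point per library. Symbol shape gives the replicate number (circle 1, square 2, triangle 3). The met-2 libraries lie between 35.0% and 46.4%, with lin-65 cco-1 replicate 3 at 43.9% among them, and the N2 libraries between 50.1% and 58.8% over a range of sums from 291 to 1278 CPM.

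The genes whose pattern over the 18 libraries was most like the mean of the members were mostly not collagens. The same held for all 15104 genes compared, of which 143 were other collagens. By Pearson's r with the mean centred log2 CPM of the 6, the first 10 of 15104 other genes were B0365.9 (0.948), cyn-6 (0.943), lpr-6 (0.938), sym-1 (0.932), dhs-16 (0.928), cdh-10 (0.927), T26C5.2 (0.926), T14B4.5 (0.926), K08B12.1 (0.925) and lpr-3 (0.924). lpr-3, lpr-6 and sym-1 encode secreted proteins of the epidermal surface matrix, lpr-3 and lpr-6 being lipocalins and sym-1 a leucine-rich repeat protein. cyn-6 encodes a cyclophilin, a prolyl isomerase, and cdh-10 a cadherin. T14B4.5 lies next to dpy-2, at II:6716863-6717868 on the same strand. It was higher in met-2 than in N2 on empty vector by 1.58 ± 0.33 (adjusted p = 0.00267) and on cco-1 RNAi by 1.22 ± 0.32 (adjusted p = 0.0128). None of the 143 other collagens was among the first 10, and 1, col-128 (r = 0.923), was among the first 40 and is named after its value was seen, as is bli-6. With so few collagens among the genes compared, these counts do not set the furrow set apart from other collagens. The median r was 0.02 over all genes and -0.04 over the col genes. Of the 15 other body-shape collagens, rol-8 was most like the furrow set (0.828) and bli-6 least (-0.462). All points share the same libraries, and no p is given.

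Other cuticle and cell type lists are read against the 15.3% of all tested genes called higher, and the same share called lower, in met-2 against N2 on empty vector. Of the 15 other body-shape collagens, 2 rose, rol-8 (1.15 ± 0.30, adjusted p = 0.00971) and sqt-3 (1.24 ± 0.36, adjusted p = 0.0173), and none fell, with a list median of 0.14 against 1.38 for the furrow set. A count of 2 in 15 is near that share of all genes. Of 6 adult cuticle collagens, 1 fell, col-19 (-1.34 ± 0.46, adjusted p = 0.0354), with a median of -0.66. Of the 128 col genes tested, 39 rose and 13 fell, with a median of 0.20. These counts include near-identical collagens, and no source used here says how reads they share were counted.

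The enzymes that modify and cross-link collagen had 5 of 11 members higher and none lower, with a median of 0.71. They included dpy-18, a prolyl 4-hydroxylase subunit (1.13 ± 0.25, adjusted p = 0.00406), its partner pdi-2 (2.30 ± 0.55, adjusted p = 0.00635) and bli-3, a dual oxidase that cross-links tyrosines (0.76 ± 0.20, adjusted p = 0.0117). Of 12 genes known to respond to loss of furrow collagens, 4 rose and none fell in met-2. These were hmit-1.1, a myo-inositol transporter (1.79 ± 0.39, adjusted p = 0.00391), gpdh-1, an enzyme of glycerol synthesis (1.72 ± 0.43, adjusted p = 0.00806), gcs-1, an enzyme of glutathione synthesis (2.39 ± 0.60, adjusted p = 0.0081), and the peptide gene cnc-4 (1.30 ± 0.38, adjusted p = 0.0175). In lin-65 on empty vector, where no furrow collagen and 1.42% of all genes were called, 2 of these 12 rose, cnc-4 (3.01 ± 0.40, adjusted p = 0.000385) and nlp-34 (2.10 ± 0.48, adjusted p = 0.0338). Single libraries stood above the rest of their group. The list mean of centred log2 CPM was 1.17, 0.30 and 0.22 in lin-65 EV replicates 1 to 3, the first being the library whose strain field reads N2. It was 0.04, -0.17 and 0.96 in met-2 EV and -0.56, -0.19 and -0.63 in N2 EV.

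Within each N2 group and lin-65 on cco-1 RNAi, genes of the molt ranked the libraries as the furrow collagens did. In the other groups they did not. In met-2 against N2 on empty vector 10 of 26 molting genes rose and 1 fell, with a median of 0.93. Among those that rose were fbn-1, a fibrillin-like matrix protein (2.75 ± 0.44, adjusted p = 0.000477), the protease gene nas-6 (1.58 ± 0.35, adjusted p = 0.00378), the transcription factor gene myrf-1 (2.06 ± 0.54, adjusted p = 0.0102) and noah-1, which encodes an embryonic and larval surface matrix protein (1.84 ± 0.49, adjusted p = 0.0108). The summed level of the 26 genes was 995 to 2121 CPM in N2 and 2605 to 3118 CPM in met-2. By library, the list mean on the centred log2 scale was -0.37, -0.86 and -0.08 in N2 EV replicates 1 to 3, where the furrow collagens had -0.56, -1.50 and 0.14. The library lowest in furrow collagens was thus also lowest in molting genes. It was lowest too in the 15 other body-shape collagens, whose list means were 0.22, -0.68 and 0.13 in N2 EV replicates 1 to 3. The part of this in the furrow collagen result was not tested. In met-2 cco-1 replicate 1 the measures parted, with -0.82 for the molting genes, -1.56 for the epidermal markers and 0.79 for the furrow collagens. Within met-2 EV the orders ran opposite. Replicates 1 to 3 had 0.59, 0.55 and 0.40 for the molting genes and 0.50, 0.71 and 0.96 for the furrow collagens.

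Of the cell type lists, those of the epidermis, seam cells, muscle and neurons had a single gene higher each in met-2 against N2 on empty vector, which is near the share over all genes. Of the 7 epidermal markers this was nhr-25, a nuclear receptor also needed for molting (2.16 ± 0.70, adjusted p = 0.0273), with a list median of 0.54 and a summed level of 229 to 326 CPM in met-2 and 186 to 233 CPM in N2. The seam cell, muscle and neuron lists hold 5 genes each. Of 6 intestinal markers 3 rose. Of 5 germ line markers 3 fell, with a summed level of 681 to 741 CPM in met-2 and 845 to 1086 CPM in N2. Of 5 tested sperm genes 4 fell, with a summed level of 153 to 198 CPM in met-2 and 340 to 595 CPM in N2. Each list was detected in all groups. The part of these marker values in the furrow collagen result was not tested.

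**Figure D5:**
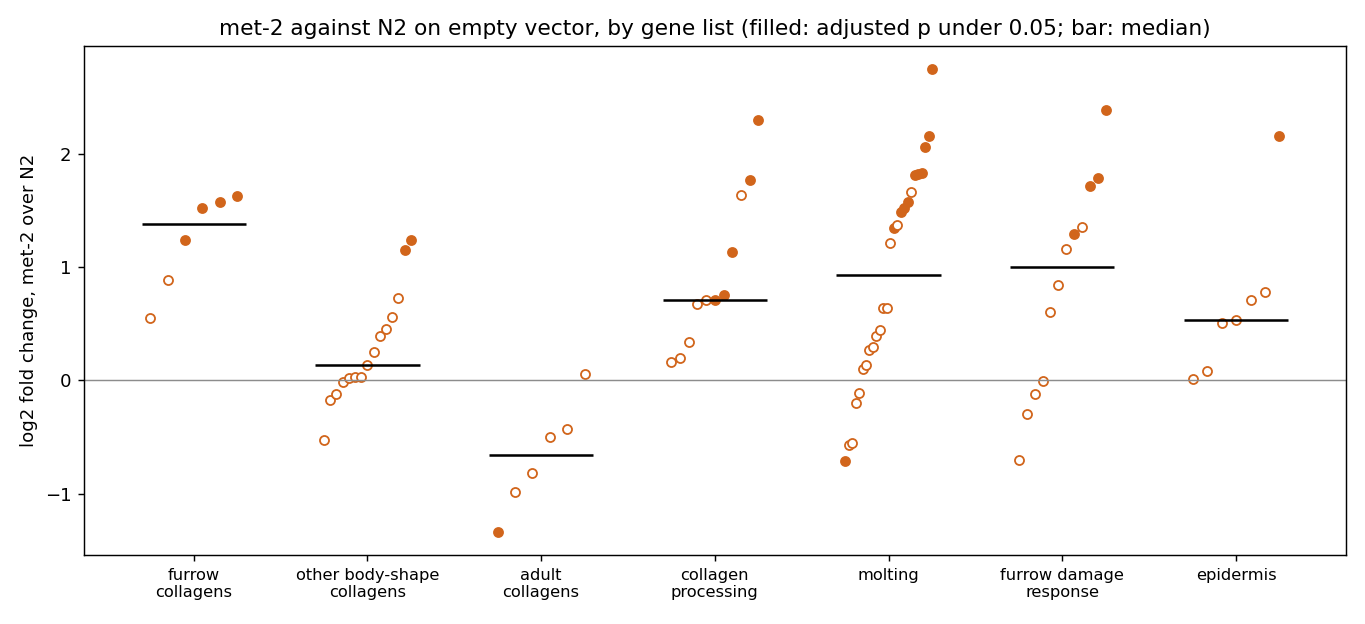
Log2 fold change of each tested gene in met-2 against N2 on empty vector, by gene list, with filled points for adjusted p under 0.05 and a bar at each list's median. The furrow collagens have a median of 1.38, the other body-shape collagens 0.14, the adult collagens -0.66 and the molting genes 0.93.

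Between cco-1 RNAi and empty vector within each strain, the same lists held few calls. Of all genes, 0.841% were called in N2, 0.715% in lin-65 and 1.11% in met-2. In N2 no gene of the body-shape, adult, processing, damage-response, molting or epidermal lists was called by edgeR in the 18-library fit. Their medians in N2 were -0.06, -0.17, 0.40, -0.28, 0.62 and 0.71, beside 0.75 for the furrow collagens. In lin-65 the furrow median of 0.99 stood beside 0.47 for the molting genes and -0.70 for the 128 col genes, of which 1 fell. In met-2 the furrow median of -0.10 stood beside -0.23 for the molting genes, and col-7, an adult collagen, fell by 2.93 on the log2 scale (adjusted p = 0.0195). The furrow collagens therefore had a median above that of the other body-shape collagens on cco-1 RNAi in N2 and lin-65 (-0.06 and -0.12 for the latter). In met-2 the medians were close, at -0.10 for the furrow set and -0.16 for the other body-shape collagens. There 59.8% of all genes were above the furrow median. The difference between lists was not tested. Between met-2 and N2 on cco-1 RNAi, where 20.8% of all genes were called and 11.2% were called higher, the lists held more calls. Of the 6 adult collagens col-7, col-62 and col-19 fell, and none rose. Of the 12 damage-response genes 5 rose, among them gpdh-1, cnc-2, gst-4 and nlp-34, and none fell. Of the 15 other body-shape collagens, dpy-17, rol-8 and dpy-4 rose, and none fell. Of the 26 molting genes fbn-1 rose and bed-3 fell, and of the 11 processing genes only dpy-31 was called, higher.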

How the data were processed

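Polyadenylated RNA from clarified lysates of whole L4 worms was sequenced after ScriptSeq v2 library preparation, per the labels' protocols. The authors deposited raw read counts per gene model, 1 column per library, and 0 columns were left unused. Bowtie 0.12.7 and DESeq are named, without a role, per the submitters' processing notes. How reads were counted, on which build and annotation and with which strand setting, is not given in the sources used here. Gene models were matched by sequence name to Ensembl 115 (WBcel235), 20071 of 20505. The members and gene lists were chosen with earlier results of these data known.

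Genes were filtered with filterByExpr (15110 kept) and fitted with edgeR 4.0.16 in R 4.3.3: TMM factors, means of 6 groups over 18 libraries, two-sided robust quasi-likelihood tests, Benjamini-Hochberg adjustment over all tested genes, threshold 0.05, 10 comparisons. SE is the absolute log2 fold change divided by the square root of F. Correlations used log2 CPM with a prior count of 2. Alternatives were DESeq2 1.42.0, RLE factors, other filters, the compared groups alone, replicate blocks, 16 libraries, each library left out, and the trend with 3′ UTR length removed (93.5% of tested genes have one). The fits were tested on simulated data. Libraries were grouped by title.

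Named genes are the members, up to 4 genes of smallest p per list, the 10 most alike in pattern, and cox-5B, lin-65 and met-2. T14B4.19 and C31H2.14 are named as overlapping genes. Replicate numbers were checked by correlating deviations from group means over all tested genes. N2 libraries of the same number had r of 0.126, 0.357 and 0.285 across the diets, each highest for its own number. Between other numbers r reached 0.12. The rule also paired N2 EV with met-2 cco-1, lin-65 EV with met-2 cco-1 and lin-65 cco-1 with met-2 EV. Across the diets in lin-65 (-0.055 to 0.201) and met-2 (-0.282 to 0.208), and between met-2 and N2 on empty vector (-0.105 to -0.0153), the numbers did not pair the libraries.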

Additional observations from a re-analysis of the deposited data

Results flagged for a closer look

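dpy-2 had fold changes of opposite sign on cco-1 RNAi in the mutants. All 3 lin-65 libraries on cco-1 RNAi were above all 3 on empty vector, and all 3 met-2 libraries on cco-1 RNAi were below all 3 on empty vector. Over all genes, 7.76% were higher without overlap in lin-65 and 5.98% lower without overlap in met-2. The log2 fold change was 1.11 ± 0.40 in lin-65 and -0.39 ± 0.40 in met-2 (SE), a difference of 1.50 that was not tested, and neither change passed on its own (edgeR, adjusted p = 0.268 and 0.803).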

How the results depend on the processing

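No furrow collagen changed its direction where it was called. In met-2 against N2 on empty vector, 2 to 5 members were called when each library was left out in turn, against 4. The numbers do not pair these libraries. With a replicate block dpy-9 passed as well (adjusted p = 0.0489), as it did in a fit of the compared groups alone (adjusted p = 0.0390). With the block 2 members, dpy-3 and dpy-7, were called in met-2 against N2 on cco-1 RNAi (adjusted p = 0.0309 and 0.0397), with 12.3% of genes higher. In N2 on cco-1 RNAi the replicate block in 1 strain alone called 5 members. A block within each strain called 1 in lin-65 (dpy-10, adjusted p = 0.0266, with 0.212% of genes higher) and 3 in the mean of 3 strains (dpy-2, dpy-7 and dpy-10, with 1.36% higher). Across the diets the numbers did not pair the libraries of lin-65 or of met-2. For the mean of 3 strains, DESeq2 called 1, the replicate block 1 (2.09% higher), and leaving out single libraries 0 to 1. The remaining comparisons gave 0 under every alternative run.

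Counts over all genes moved more. N2 on cco-1 RNAi gave 127 genes, 533 by DESeq2, 2860 in the compared groups alone, 2828 in 16 libraries, 200 with the block and 4351 with the block in N2 alone, and 50 to 863 without single libraries. Without single libraries the met-2 against N2 counts ran from 2411 to 6095 on empty vector (4616 in all, 7517 in 16 libraries) and from 1888 to 3877 on cco-1 RNAi (3146 in all, 1317 in the compared groups alone). The causes were not tested. Removing the trend with 3′ UTR length moved each member by less than its SE. With 3 libraries a group and a 3-fold spread in N2, a missed threshold does not show that levels were alike.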
